A study of Mus musculus with 23 samples.

Results

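LPS-activated splenic B cells were compared with quiescent splenic B cells by RNA sequencing in 9 of the 23 libraries of the series, 5 activated and 4 quiescent, chosen by their labels. The activated cells were B cells of wild-type Balb/c mice that received 1 µg/ml lipopolysaccharide (LPS, an outer-membrane component of Gram-negative bacteria) in culture for 16 hours after isolation. The quiescent cells were B cells of wild-type Balb/c mice with no treatment. All 9 libraries came from spleen, and in both groups the B cells had been enriched with magnetic beads that remove other cells, so cells that escape the beads remain. The other 14 libraries came from tumors of transgenic mice and entered no fit here. No library came from B cells cultured without LPS, so LPS and the time in culture cannot be told apart. The labels do not say whether the libraries of a group came from separate mice, so the p-values measure only the spread between these libraries, which may be technical.

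A resting follicular or marginal zone B cell is small, circulates between blood and lymphoid tissue and does not divide. LPS is sensed on the mouse B cell by TLR4 with its partner MD-2 (LY96) and by the related pair RP105 (CD180) and MD-1 (LY86), and signals through MYD88 and TICAM1 to the NF-kB transcription factors. The cell then grows, enters the cell cycle and can go on to become an antibody-secreting plasmablast.

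The libraries held 20194017 to 25045814 estimated counts in the activated group and 15529618 to 24226060 in the quiescent group. The deposited table gives mouse genes under human symbols, which are used here. Levels are CPM (counts scaled to equal library size, with TMM factors), a share of a library that says nothing of the RNA content of a cell. They are not corrected for gene length, so levels are not compared between genes. Means are given ± SD over the 5 activated and 4 quiescent libraries. Log2 changes are activated over quiescent, ± an approximate standard error (SE), and a gene was called at an edgeR adjusted p under 0.05. Log2 levels correlated across genes at 0.989 to 0.992 among activated libraries, at 0.984 to 0.991 among quiescent libraries and at 0.834 to 0.858 between the groups. Of 10030 genes tested, 4031 (40.2%) were higher in activated cells and 4077 (40.6%) were lower, so 80.8% were called in one direction or the other. With a change of at least 2-fold as a second condition, 1417 (14.1%) were higher and 1312 (13.1%) were lower. The 2 groups did not overlap for 73.1% of the genes, and the median log2 change of all genes was -0.02. Since most genes passed the test, counts of list members below are to be read beside these shares. A list whose shares lie near them differs little from all genes tested. Bulk RNA cannot tell fewer cells of a type from less RNA per cell.

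The labels of tissue and cell type were met by B cell markers in both groups. MS4A1, which encodes CD20, had 2027, 1983, 2044, 2030.4 and 2066 CPM in the activated libraries, against 2095, 2164, 2190.4 and 2176 CPM in the quiescent ones. CD79B, a signaling chain of the B cell receptor, had 1168, 1205, 1299.7, 1236 and 1394 CPM in the activated libraries, against 1688, 1696, 1665 and 1657 CPM in the quiescent ones. Both genes were abundant in every library. PAX5, the transcription factor that maintains B cell identity, averaged 1574 ± 53.5 CPM in activated and 1542 ± 60.3 CPM in quiescent cells (SD, n = 5 and 4), a difference that did not pass the test (log2 change of 0.03, edgeR adjusted p = 0.496); quantile normalization with limma put it at -0.13 with an adjusted p of 0.00583. The drop of MS4A1 was small (log2 change -0.09 ± 0.03, adjusted p = 0.0182) and lost its call in 5 of the 18 alternative settings.

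Markers of other cells were lower in activated cells for several types. Over 13 macrophage genes the summed level ranged over 30 to 47.8 CPM in activated libraries and over 52.1 to 330 CPM in quiescent libraries. For 10 natural killer cell genes it was 3.86 to 5.37 CPM in activated libraries and 19.9 to 27.8 CPM in quiescent libraries, and for 16 T cell genes 54.8 to 65.1 CPM in activated libraries and 90.5 to 97.8 CPM in quiescent libraries, of which LCK averaged 51.9 CPM in activated and 74.3 CPM in quiescent cells. For 7 platelet genes the sums were 87.3 to 95.3 CPM in activated libraries and 148 to 179 CPM in quiescent libraries, nearly all of it from ITGB3, at 90.7 CPM in activated and 156 CPM in quiescent cells. For 9 dendritic cell genes they were 137 to 156 CPM in activated libraries and 205 to 219 CPM in quiescent libraries, but the list holds CCR7, which B cells also use for homing. Without it, a choice made after seeing the data, the direction of the sum turned. The other 8 summed to 70.4 to 83.8 CPM in activated libraries and 45.7 to 61.3 CPM in quiescent libraries. BST2 was the largest part of that sum, at 55.5 CPM in activated and 24.9 CPM in quiescent cells. Gene by gene, 5 of the 9 were lower and 3 higher. The sums of 9 neutrophil genes (7.27 to 10.8 CPM in activated libraries and 9.1 to 10.7 CPM in quiescent libraries) and of 11 stromal genes (3.94 to 8.16 CPM in activated libraries and 3.4 to 7.28 CPM in quiescent libraries) overlapped. Those of 10 erythroid genes were 292 to 319 CPM in activated libraries and 106 to 131 CPM in quiescent libraries, but nearly all of this was the transferrin receptor gene TFRC, which dividing cells also use. Without TFRC, left out likewise after seeing the data, the other 9 summed to 0.349 to 2.68 CPM in activated libraries and 9.5 to 25.6 CPM in quiescent libraries, again the other direction. At 0 in every activated library were 2 neutrophil, 1 dendritic, 1 erythroid, 4 platelet and 2 stromal markers, and at 0 in every quiescent library were 1 platelet and 2 stromal markers. Their part in the results was not tested.

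Transcripts of 3 Y-linked genes summed to 0.541 to 0.939 CPM in the activated libraries and to 354 to 369 CPM in the quiescent libraries, so the sex of the source and LPS cannot be told apart. Y-linked genes were left out of every fit. Of 272 X-linked genes 75.7% were called, with a median log2 change of 0.0, beside 81.2% of 8803 autosomal genes.

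**Figure D1:**
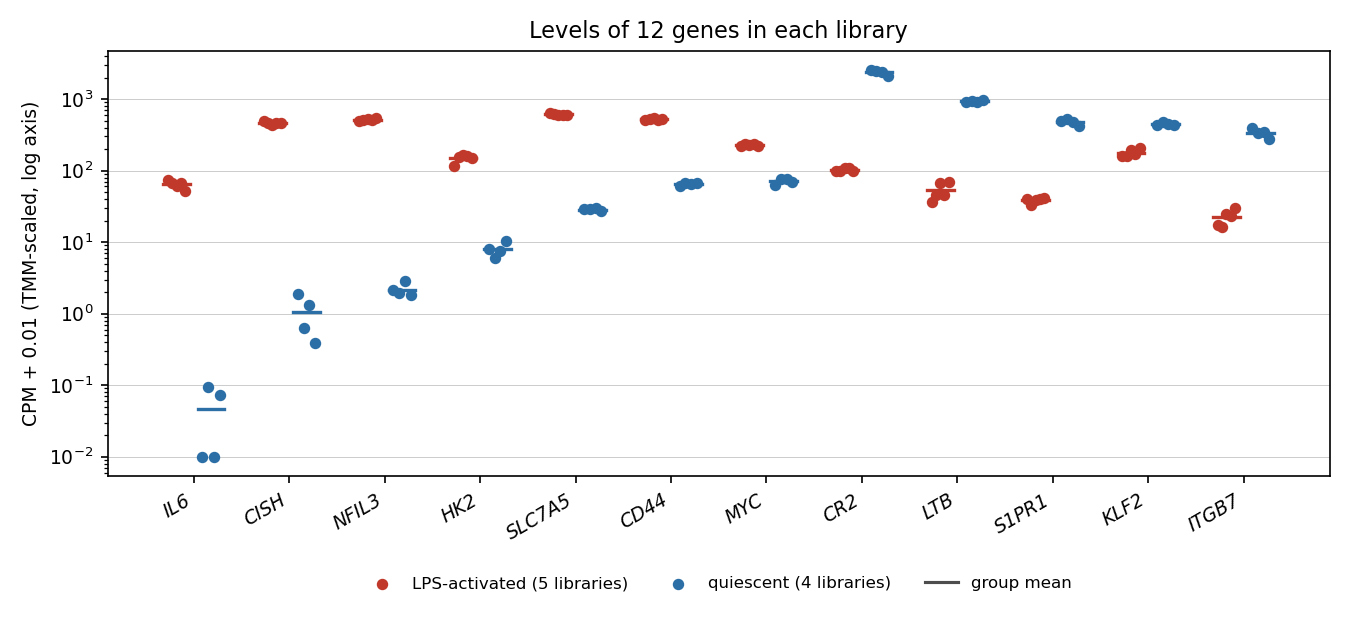
Levels of 12 genes, as CPM + 0.01 on a log axis, in each of the 5 activated libraries (left of each pair) and the 4 quiescent libraries (right), with bars at the group means. IL6, CISH and NFIL3 are high in every activated library and near 0 in every quiescent one. CR2, LTB and S1PR1 are lower in every activated library than in every quiescent one, but not near 0.

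Cytokine genes split into a few that rose steeply and a group that fell. IL6, which encodes a cytokine that drives plasma cell growth and inflammation, had 75.1, 66.7, 60.8, 67.1 and 51.1 CPM in the activated libraries, against 0, 0.0840, 0 and 0.0639 CPM in the quiescent ones. It was nearly absent from quiescent cells: 7315 counts were found over the activated libraries and 3 over the quiescent libraries, a ratio of 1630 with a 95% counting interval of 558 to 7910 (edgeR adjusted p = 1.89e-12; the fitted log2 change was 10.46, and 11.30 without quiescent library 2). LTB, the lymphotoxin beta gene, whose membrane-bound product keeps lymphoid tissue organised, had 36.0, 45.7, 67.7, 45.6 and 69.0 CPM in the activated libraries, against 913, 944, 903 and 964 CPM in the quiescent ones. Every activated library lay far below every quiescent one (log2 change -4.15 ± 0.16, adjusted p = 7.61e-11).

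The promoter windows of these genes are shown because both hold the letters of a kB motif, the site NF-kB binds, while the genes moved in opposite directions. Each window runs from 250 bases before to 50 bases after the RefSeq gene start in GRCm38.p6, and capitals mark matches to GGGANNNNCC on either strand. The IL6 window (chr5:30012864-30013163, plus strand) holds 2 overlapping matches, and the LTB window (chr17:35194257-35194556, plus strand) holds 1.
IL6: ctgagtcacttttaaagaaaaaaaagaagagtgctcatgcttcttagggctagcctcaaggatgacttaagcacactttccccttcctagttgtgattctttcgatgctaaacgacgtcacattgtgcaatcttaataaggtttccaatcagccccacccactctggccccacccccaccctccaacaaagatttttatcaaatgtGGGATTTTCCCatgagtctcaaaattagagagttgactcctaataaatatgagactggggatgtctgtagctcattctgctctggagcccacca
LTB: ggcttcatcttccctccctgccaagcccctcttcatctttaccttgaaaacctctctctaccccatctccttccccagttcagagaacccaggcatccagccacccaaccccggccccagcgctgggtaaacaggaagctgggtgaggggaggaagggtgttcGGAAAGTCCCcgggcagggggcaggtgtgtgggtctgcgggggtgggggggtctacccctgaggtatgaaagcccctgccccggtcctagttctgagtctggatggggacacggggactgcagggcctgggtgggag
The motif was found in 26.9% of 7364 such promoters of genes tested, in 29.7% of those of genes at least 2-fold higher and in 29.9% of those of genes at least 2-fold lower. Among the promoters of the cytokine and chemokine list, 9 of 14 held it. A match is a description of letters, not a site shown to be bound.

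Of 17 cytokine and chemokine genes tested, 8 were higher and 9 were lower, and 7 in each direction changed at least 2-fold. For all genes tested the shares were 40.2% higher and 40.6% lower, and at least 2-fold 14.1% and 13.1%. CCL22, a chemokine that attracts T cells, had 116, 127, 75.2, 83.5 and 57.7 CPM in the activated libraries, against 0.893, 0.882, 1.10 and 1.02 CPM in the quiescent ones (log2 change 6.56 ± 0.31, adjusted p = 4.71e-10). VEGFA, the vascular growth factor gene, had 101, 129, 152, 132 and 154 CPM in the activated libraries, against 1.12, 1.01, 1.21 and 2.17 CPM in the quiescent ones (log2 change 6.64 ± 0.20, adjusted p = 6.26e-12). Both were near 1 CPM in quiescent cells. IL10, an anti-inflammatory cytokine of activated B cells, stayed low, with 2.68, 3.31, 2.74, 3.93 and 2.72 CPM in activated libraries and 0, 0.0420, 0.110 and 0 CPM in quiescent libraries. That is 349 counts over the activated libraries and 3 over the quiescent ones, a ratio of 77.8 with a 95% counting interval of 26.4 to 379 (fitted log2 change of 6.08, and 7.06 without quiescent library 3). EBI3, a subunit of IL-27 and IL-35, averaged 44.95 ± 4.43 CPM in activated and 12.8 ± 2.07 CPM in quiescent cells (SD, n = 5 and 4; log2 change 1.81 ± 0.11, adjusted p = 5.96e-09). On the falling side, LTA, which encodes lymphotoxin alpha, averaged 7.37 ± 1.11 CPM in activated and 41.9 ± 3.13 CPM in quiescent cells (log2 change -2.51 ± 0.11, adjusted p = 1.88e-10). IL12A, a subunit of IL-12 and IL-35, averaged 2.64 ± 0.738 CPM in activated and 33.5 ± 5.22 CPM in quiescent cells (log2 change -3.68 ± 0.18, adjusted p = 5.94e-10). TGFB1 averaged 150.2 ± 4.93 CPM in activated and 327 ± 15.9 CPM in quiescent cells (log2 change -1.12 ± 0.04, adjusted p = 7.09e-11). TNF differed little, with 29.7, 32.0, 35.7, 32.5 and 35.7 CPM in the activated libraries, against 30.1, 28.3, 29.1 and 26.6 CPM in the quiescent ones. The groups overlapped (log2 change 0.21 ± 0.07, adjusted p = 0.0158). The call was lost with quantile normalization and limma (adjusted p = 0.112).

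The JAK-STAT feedback genes CISH, SOCS1, SOCS2 and SOCS3 and the PIM kinase genes rose. CISH, an inhibitor of cytokine receptor signaling that STAT5 induces, had 489, 461, 437, 457 and 456 CPM in the activated libraries, against 1.90, 0.630, 1.32 and 0.383 CPM in the quiescent ones. The lowest activated library lay far above the highest quiescent one (log2 change 8.77 ± 0.17, adjusted p = 1.79e-13). SOCS1, which blocks JAK kinases, had 146, 136, 129, 145 and 159 CPM in the activated libraries, against 5.13, 6.01, 5.84 and 6.07 CPM in the quiescent ones (log2 change 4.63 ± 0.08, adjusted p = 9.78e-14). SOCS2, of the same inhibitor family, averaged 30.1 ± 4.50 CPM in activated and 1.42 ± 0.387 CPM in quiescent cells (log2 change 4.42 ± 0.18, adjusted p = 1.23e-10). SOCS3 averaged 98.0 ± 6.41 CPM in activated and 11.2 ± 2.68 CPM in quiescent cells (log2 change 3.12 ± 0.13, adjusted p = 1.04e-10). SOCS5 went the other way, at 26.4 ± 2.52 CPM in activated and 93.5 ± 5.08 CPM in quiescent cells (log2 change -1.83 ± 0.07, adjusted p = 6.96e-11). PIM1, a survival kinase gene that STATs induce, had 755, 813, 838, 797 and 805 CPM in the activated libraries, against 78.6, 73.4, 68.2 and 57.7 CPM in the quiescent ones (log2 change 3.53 ± 0.08, adjusted p = 5.65e-13). The related PIM2 averaged 126 ± 25.4 CPM in activated and 55.4 ± 3.56 CPM in quiescent cells (log2 change of 1.18 ± 0.13). Among the STATs themselves, STAT5A averaged 182 ± 15.3 CPM in activated and 53.4 ± 3.46 CPM in quiescent cells (log2 change of 1.77 ± 0.07). STAT3 averaged 386 ± 5.33 CPM in activated and 274 ± 22.9 CPM in quiescent cells (log2 change of 0.50 ± 0.05). The IL-6 receptor gene IL6R fell, at 18.8 ± 1.99 CPM in activated and 26.6 ± 3.57 CPM in quiescent cells (log2 change -0.51 ± 0.11, adjusted p = 0.000656). Of 26 genes of the list, 12 were higher and 10 lower, 7 of them at least 2-fold higher and 1 at least 2-fold lower. Over all genes tested, 40.2% were higher and 40.6% lower, and 14.1% and 13.1% were so at least 2-fold.

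The CISH promoter window (chr9:107296409-107296708, plus strand, GRCm38.p6, RefSeq) is shown because it holds 2 matches to the STAT motif TTCNNNGAA, in capitals, just after the gene start.
CISH: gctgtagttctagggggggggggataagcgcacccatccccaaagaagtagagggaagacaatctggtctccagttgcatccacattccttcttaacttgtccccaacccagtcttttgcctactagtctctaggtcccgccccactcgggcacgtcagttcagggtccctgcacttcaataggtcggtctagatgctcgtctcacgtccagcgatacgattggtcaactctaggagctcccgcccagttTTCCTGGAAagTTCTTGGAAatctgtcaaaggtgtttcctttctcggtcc
The motif stood in 6.37% of all 7364 promoters and in 2 of 18 promoters of the JAK-STAT list, those of CISH and SOCS3. It stood in 6.38% of promoters of genes at least 2-fold higher and in 6.38% of those at least 2-fold lower. In the NF-kB list 5 of 16 promoters held it.

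NFIL3 and TNFRSF8 had the next steepest rises among regulators and receptors. NFIL3, a basic leucine zipper transcription factor, had 498, 511, 529, 505 and 539.9 CPM in the activated libraries, against 2.12, 1.93, 2.81 and 1.79 CPM in the quiescent ones. Its activated libraries lay within a narrow band far above the quiescent ones (log2 change 7.90 ± 0.09, adjusted p = 3.45e-15). TNFRSF8, which encodes the activation receptor CD30, had 105, 127, 108, 106 and 89.0 CPM in the activated libraries, against 0.446, 0.252, 0.551 and 0.511 CPM in the quiescent ones (log2 change 7.96 ± 0.17, adjusted p = 4.58e-13).

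Of the LPS receptor genes, TLR4, CD180 and LY86 fell and LY96 rose. TLR4 had 18.6, 17.9, 13.8, 14.9 and 16.0 CPM in the activated libraries, against 23.3, 22.8, 22.2 and 24.0 CPM in the quiescent ones, a drop of 1.42-fold with no overlap (log2 change -0.50 ± 0.09, adjusted p = 0.000276). Its partner LY96 was low in both groups, at 5.89 ± 1.01 CPM in activated and 3.05 ± 0.8293 CPM in quiescent cells (log2 change 0.97 ± 0.21, adjusted p = 0.001). CD180 averaged 199 ± 4.73 CPM in activated and 427 ± 23.4 CPM in quiescent cells (log2 change -1.10 ± 0.04, adjusted p = 7e-11). Its partner LY86 averaged 155 ± 7.70 CPM in activated and 191 ± 12.6 CPM in quiescent cells (log2 change -0.30 ± 0.05, adjusted p = 0.000166). Of the other Toll-like receptors, TLR7, a sensor of RNA, rose and had 122, 123, 106, 122 and 122 CPM in the activated libraries, against 32.6, 34.1, 38.2 and 42.0 CPM in the quiescent ones (log2 change 1.70 ± 0.08, adjusted p = 2.73e-10). TLR9, a sensor of DNA, averaged 85.7 ± 8.15 CPM in activated and 128 ± 2.85 CPM in quiescent cells (log2 change of -0.58 ± 0.06). The lipoprotein sensors TLR1, TLR2 and TLR6 fell, with log2 changes of -1.65 ± 0.05, -2.44 ± 0.12 and -1.45 ± 0.10. Among adaptors and kinases, MYD88 had a log2 change of 0.40 ± 0.05, TICAM1 of 1.29 ± 0.07 and IRAK2 of -1.68 ± 0.05. In the whole list of 18 genes, 4 were higher and 10 lower, with a median log2 change of -0.29.

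NF-kB genes changed by less than 2-fold in most cases. NFKB1, which encodes p105 and p50, averaged 755 ± 38.0 CPM in activated and 461 ± 7.92 CPM in quiescent cells (log2 change 0.71 ± 0.04, adjusted p = 3.83e-09). REL averaged 434 ± 19.4 CPM in activated and 389 ± 9.47 CPM in quiescent cells (log2 change 0.16 ± 0.04, adjusted p = 0.00267). RELB and NFKB2, the subunits of the alternative pathway, fell, with log2 changes of -0.46 ± 0.05 and -0.78 ± 0.04. IKBKB, a kinase that acts against the inhibitors of NF-kB, fell as well, with -0.91 ± 0.06. The inhibitor gene NFKBIA averaged 224 ± 9.41 CPM in activated and 232 ± 12.4 CPM in quiescent cells and did not pass the test (log2 change of -0.05, edgeR adjusted p = 0.341; 0.02 with quantile normalization). TNFAIP3, the feedback inhibitor A20, had 362, 383, 412, 387 and 388 CPM in the activated libraries, against 93.3, 89.1, 95.4 and 96.8 CPM in the quiescent ones (log2 change 2.05 ± 0.05, adjusted p = 7.33e-13). TRAF1, NFKBIZ and BCL3, further targets and cofactors of NF-kB, rose with log2 changes of 1.46 ± 0.10, 1.28 ± 0.06 and 0.97 ± 0.07. Of 20 genes, 7 were higher and 12 lower, 3 at least 2-fold higher and none at least 2-fold lower, with a median of -0.31.

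Genes of B cell receptor signaling fell or did not pass the test. Of 24 genes, 20 were lower and none was higher, 8 of them at least 2-fold lower, and the median log2 change was -0.75. CR2, the complement receptor CD21, which lowers the threshold of the B cell receptor on mature B cells, had 100, 100.2, 109, 109 and 99.6 CPM in the activated libraries, against 2543, 2447, 2406 and 2117 CPM in the quiescent ones. The groups were separated by a wide gap (log2 change -4.52 ± 0.06, adjusted p = 1.1e-14). CD79A, a signaling chain of the receptor, had 746, 712, 749, 763 and 875 CPM in the activated libraries, against 2514, 2570.2, 2606 and 2494 CPM in the quiescent ones (log2 change -1.73 ± 0.05, adjusted p = 9.02e-12). Its partner CD79B averaged 1260.4 ± 88.8 CPM in activated and 1676 ± 18.5 CPM in quiescent cells (log2 change -0.41 ± 0.05, adjusted p = 3.34e-06). The kinases SYK and LYN had log2 changes of -1.89 ± 0.07 and -1.45 ± 0.05. Of the regulators, CD72 averaged 124 ± 8.83 CPM in activated and 565 ± 20.3 CPM in quiescent cells (log2 change -2.19 ± 0.05, adjusted p = 1.15e-12). The inhibitory receptor CD22 averaged 1114 ± 121 CPM in activated and 2063 ± 80.9 CPM in quiescent cells (log2 change -0.89 ± 0.07, adjusted p = 5.38e-08).

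Other surface genes of resting B cells were mostly lower. Of 18 genes, 15 were lower and none was higher, 9 at least 2-fold lower, with a median of -0.97. FCRLA, an Fc receptor-like protein of B cells, had 25.6, 25.9, 22.8, 28.2 and 25.9 CPM in the activated libraries, against 446, 479.9, 482 and 503 CPM in the quiescent ones (log2 change -4.22 ± 0.06, adjusted p = 1.64e-14). FCRL1 averaged 54.5 ± 2.79 CPM in activated and 441 ± 11.2 CPM in quiescent cells (log2 change -3.02 ± 0.05, adjusted p = 2.36e-14). FCMR, the receptor for IgM, averaged 153 ± 10.7 CPM in activated and 1168 ± 45.2 CPM in quiescent cells (log2 change -2.93 ± 0.05, adjusted p = 1.03e-13). CD55, a complement inhibitor whose human name is carried by 2 mouse profiles and is uncertain to that extent, averaged 79.4 ± 17.1 CPM in activated and 861 ± 60.6 CPM in quiescent cells (log2 change -3.44 ± 0.13, adjusted p = 4.78e-11). FCER2, the IgE receptor CD23, averaged 1529 ± 220.3 CPM in activated and 1356 ± 62.5 CPM in quiescent cells and did not pass the test (log2 change of 0.17, edgeR adjusted p = 0.08), but was called higher in 3 of the 18 alternative settings.

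Activation markers on the surface rose unevenly. CD44, an adhesion receptor for hyaluronan, had 508, 530.4, 548, 504 and 519 CPM in the activated libraries, against 60.9, 66.3, 64.4 and 66.4 CPM in the quiescent ones (log2 change 3.02 ± 0.05, adjusted p = 2.36e-14). CD69, an early activation marker that holds lymphocytes in tissue, had 165, 163, 167, 163 and 150.1 CPM in the activated libraries, against 36.1, 40.2, 34.0 and 36.9 CPM in the quiescent ones (log2 change 2.13 ± 0.06, adjusted p = 2.83e-12). IL2RA, the alpha chain of the IL-2 receptor, averaged 58.6 ± 4.86 CPM in activated and 3.22 ± 0.960 CPM in quiescent cells (log2 change 4.199 ± 0.14, adjusted p = 1.96e-11). CD83, a marker of activated B cells, averaged 1459 ± 58.0 CPM in activated and 300.3 ± 22.5 CPM in quiescent cells (log2 change 2.28 ± 0.05, adjusted p = 9.46e-13). The IL-4 receptor gene IL4R averaged 873 ± 43.9 CPM in activated and 315 ± 11.1 CPM in quiescent cells (log2 change 1.47 ± 0.05, adjusted p = 9.51e-12). TFRC, which brings iron into growing cells, averaged 306 ± 12.03 CPM in activated and 99.1 ± 4.06 CPM in quiescent cells (log2 change 1.63 ± 0.05, adjusted p = 3.92e-12). The costimulatory ligand CD86 averaged 79.2 ± 5.38 CPM in activated and 42.0 ± 2.30 CPM in quiescent cells (log2 change 0.92 ± 0.06, adjusted p = 1.61e-08). Its relative CD80 averaged 4.58 ± 0.571 CPM in activated and 4.03 ± 0.705 CPM in quiescent cells (log2 change of 0.19, edgeR adjusted p = 0.343) and did not pass the test. CD40, the receptor for T cell help, also did not pass the test, with 203, 218, 216, 202 and 213 CPM in the activated libraries, against 233, 229.7, 208 and 209 CPM in the quiescent ones (log2 change of -0.06, edgeR adjusted p = 0.227; 0.006 with quantile normalization). IL2RG and CD38 fell, with log2 changes of -1.41 ± 0.04 and -0.91 ± 0.05. In all, 13 of 22 genes were higher and 5 lower, 8 at least 2-fold higher and 1 at least 2-fold lower.

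Genes for homing and tissue positioning had the lowest median of the 30 lists of B cell genes and pathways, -1.26. The medians of 4 lists of markers of other cells lay lower. Those 4 medians cover only the markers tested. A scarce marker can pass the filter through the group where it is high alone, so they are partly set by the filter. Of 20 homing genes, 16 were lower and 4 higher, 13 at least 2-fold lower and 2 at least 2-fold higher. S1PR1, the receptor that lets lymphocytes leave lymphoid tissue, had 39.8, 33.4, 39.3, 40.6 and 41.5 CPM in the activated libraries, against 491, 527, 485 and 426 CPM in the quiescent ones (log2 change -3.63 ± 0.07, adjusted p = 2.47e-13). ITGB7, an integrin chain for homing to the gut, had 17.6, 16.5, 24.8, 22.9 and 29.6 CPM in the activated libraries, against 397, 332, 347 and 281 CPM in the quiescent ones (log2 change -3.94 ± 0.15, adjusted p = 7.38e-11). The chemokine receptor CCR6 averaged 18.3 ± 1.70 CPM in activated and 163 ± 5.05 CPM in quiescent cells (log2 change -3.16 ± 0.06, adjusted p = 2.77e-13). CXCR4 averaged 43.7 ± 4.92 CPM in activated and 245 ± 29.4 CPM in quiescent cells (log2 change -2.49 ± 0.09, adjusted p = 4.27e-11). CCR7, CXCR5 and the integrin ITGA4 had log2 changes of -1.25 ± 0.07, -1.18 ± 0.05 and -1.89 ± 0.07. The exceptions included GPR183 (EBI2), which guides activated B cells to the outer follicle, at 255 ± 19.8 CPM in activated and 105 ± 12.9 CPM in quiescent cells (log2 change 1.28 ± 0.08, adjusted p = 9.43e-09). ITGB1, the beta 1 integrin chain, averaged 156 ± 10.2 CPM in activated and 65.9 ± 6.23 CPM in quiescent cells (log2 change 1.24 ± 0.07, adjusted p = 2.09e-09).

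MHC class II genes were mostly lower. Of 16 genes, 14 were lower and 1 higher, 4 at least 2-fold lower, with a median of -0.67. HLA-DOB and HLA-DOA, human names for the chains of a peptide-loading inhibitor, had log2 changes of -1.65 ± 0.05 and -1.53 ± 0.06. HLA-DMA, a chain of the peptide-loading factor itself, averaged 387 ± 15.8 CPM in activated and 308 ± 10.03 CPM in quiescent cells (log2 change 0.33 ± 0.04, adjusted p = 7.11e-06). HLA-DRA averaged 1939 ± 35.0 CPM in activated and 2905 ± 168 CPM in quiescent cells (log2 change -0.58 ± 0.04, adjusted p = 1.75e-08). The master regulator CIITA averaged 531 ± 29.0 CPM in activated and 844 ± 24.3 CPM in quiescent cells (log2 change -0.67 ± 0.04, adjusted p = 1.16e-08). CD74, the invariant chain, averaged 6673 ± 402 CPM in activated and 11755 ± 532 CPM in quiescent cells (log2 change -0.82 ± 0.05, adjusted p = 3.28e-09). Quantile normalization turned its direction (log2 change of 0.32, adjusted p = 1.18e-06).

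Transcription factor genes of the B lineage fell more often than they rose. Of 20 B lineage factors, 11 were lower and 4 higher, 6 at least 2-fold lower and none at least 2-fold higher. SPIB averaged 296 ± 14.8 CPM in activated and 953 ± 72.5 CPM in quiescent cells (log2 change -1.69 ± 0.05, adjusted p = 1.33e-11). ETS1, which restrains plasma cell formation, averaged 555 ± 60.0 CPM in activated and 1614 ± 44.4 CPM in quiescent cells (log2 change -1.54 ± 0.07, adjusted p = 2.36e-10). BCL6, the factor of germinal center B cells, averaged 76.6 ± 17.2 CPM in activated and 215 ± 15.8 CPM in quiescent cells (log2 change -1.49 ± 0.13, adjusted p = 1.84e-07). ID3, an inhibitor of E proteins, had a log2 change of -1.47 ± 0.05, IKZF3 of -1.13 ± 0.05 and EBF1 of -0.93 ± 0.04. Among 22 genes linked to lymphocyte quiescence, 20 were lower and 1 higher, 14 at least 2-fold lower and 1 at least 2-fold higher, with a median of -1.12. KLF2, which keeps lymphocytes resting and in T cells drives S1PR1, had 159, 162, 193, 170 and 207 CPM in the activated libraries, against 431, 471, 454 and 435 CPM in the quiescent ones (log2 change -1.33 ± 0.07, adjusted p = 1.96e-09). BTG1, an antiproliferative gene, had 319, 291, 326, 316 and 340.4 CPM in the activated libraries, against 1389.6, 1386, 1529.8 and 1453 CPM in the quiescent ones (log2 change -2.18 ± 0.05, adjusted p = 6.05e-13). KLF3, BTG2, PDCD4, SESN1 and FOXO1 fell too, with log2 changes of -1.78 ± 0.09, -1.50 ± 0.08, -1.43 ± 0.07, -1.76 ± 0.09 and -1.01 ± 0.05. DDIT4, an inhibitor of mTORC1, was the 1 that rose, at 163 ± 24.6 CPM in activated and 53.0 ± 6.97 CPM in quiescent cells (log2 change 1.62 ± 0.12, adjusted p = 2.8e-08).

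Immediate early genes, which respond to stimulation within minutes, moved in both directions. FOS had 1.62, 1.53, 0.448, 0.846 and 1.24 CPM in the activated libraries, against 21.5, 50.3, 47.5 and 34.1 CPM in the quiescent ones (log2 change -5.05 ± 0.31, adjusted p = 5.23e-09). FOSB averaged 0.466 ± 0.138 CPM in activated and 10.8 ± 3.98 CPM in quiescent cells (log2 change -4.51 ± 0.33, adjusted p = 3.75e-08). These AP-1 subunits reached at most 1.62 CPM in an activated library. DUSP1 and DUSP6, phosphatases that end MAP kinase signals, and EGR3 fell, with log2 changes of -2.88 ± 0.15, -2.35 ± 0.13 and -1.67 ± 0.09. ATF3, a stress-induced factor, averaged 28.1 ± 4.28 CPM in activated and 0.894 ± 0.206 CPM in quiescent cells (log2 change 4.95 ± 0.18, adjusted p = 3.84e-11). The zinc finger factor EGR2 averaged 82.9 ± 7.25 CPM in activated and 10.4 ± 1.88 CPM in quiescent cells (log2 change 3.001 ± 0.11, adjusted p = 3.73e-11). JUN averaged 256 ± 11.3 CPM in activated and 101 ± 20.4 CPM in quiescent cells (log2 change 1.35 ± 0.11, adjusted p = 8.65e-08). Of 20 genes, 7 were higher and 11 lower, 7 at least 2-fold higher and 9 at least 2-fold lower. Quiescent library 1 was the lowest of the 4 quiescent libraries for 13 of the 20 (65%), against 26.5% of all genes tested.

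MYC and nearly all genes for making ribosomes rose. MYC, a transcription factor that drives growth, had 222, 235, 227, 233 and 219 CPM in the activated libraries, against 62.8, 77.0, 75.7 and 69.8 CPM in the quiescent ones (log2 change 1.67 ± 0.06, adjusted p = 3.32e-11). Of its antagonists, MXD4 and MXD1 fell, with log2 changes of -1.87 ± 0.08 and -1.29 ± 0.08, and MXD3, which is expressed in S phase, rose by 2.48 ± 0.26. Of 32 ribosome biogenesis genes, 31 were higher and none was lower, 24 at least 2-fold higher, with a median of 1.30. NCL, which encodes the nucleolar protein nucleolin, averaged 2495 ± 124 CPM in activated and 559 ± 5.58 CPM in quiescent cells (log2 change 2.16 ± 0.04, adjusted p = 2.05e-13). NPM1, nucleophosmin, averaged 2009 ± 57.7 CPM in activated and 459 ± 7.805 CPM in quiescent cells (log2 change 2.13 ± 0.04, adjusted p = 5.97e-14). NOP58 and GAR1, core proteins of small nucleolar ribonucleoproteins, had log2 changes of 2.0 ± 0.06 and 1.94 ± 0.09. The E-box CACGTG, which MYC and related factors bind, was found in 5 of 27 promoters of this list and in 11% of all 7364. Its share was 12% for genes at least 2-fold higher and 9.06% for those at least 2-fold lower. In the polyamine list 10 of 13 genes were higher and 1 lower, 5 at least 2-fold higher. ODC1, the first enzyme of polyamine synthesis, and SRM, spermidine synthase, had log2 changes of 1.78 ± 0.07 and 2.24 ± 0.12. EIF5A, a translation factor that carries a modified residue made from spermidine and shares its profile with a related human name, changed by 1.48 ± 0.04, and SAT1, which breaks polyamines down, changed by -1.68 ± 0.05.

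**Figure D2:**
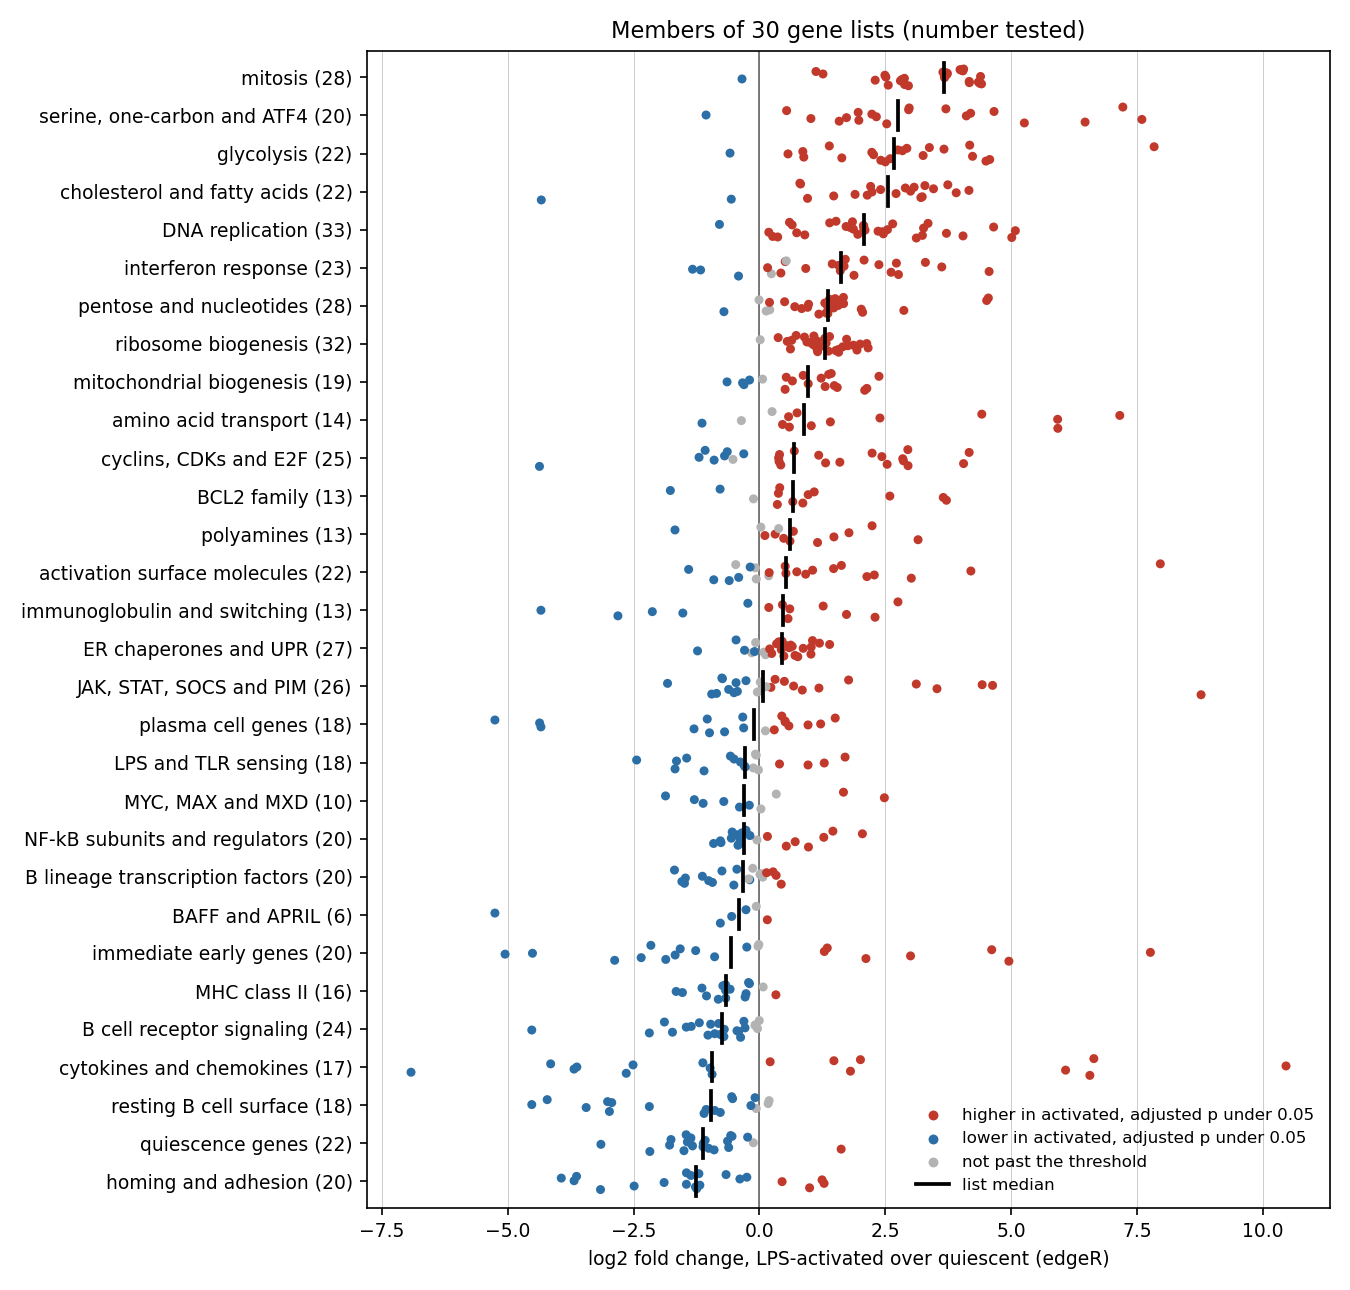
Log2 fold change (activated over quiescent, horizontal axis) of every tested member of 30 gene lists, ordered by list median (black bars), with the number of members tested in brackets. Mitosis, serine and ATF4, glycolysis and cholesterol genes lie furthest to the right, with medians of 3.67, 2.75, 2.67 and 2.56, and homing genes furthest to the left, with -1.26.

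Genes of serine synthesis, one-carbon metabolism and the ATF4 response rose by more than those of any other metabolic list, with a median log2 change of 2.75. ATF4 is a transcription factor that restores amino acid supply. Of 20 genes, 19 were higher and 1 lower, 18 at least 2-fold higher and 1 at least 2-fold lower. ASNS, asparagine synthetase, had 242, 263, 258, 255 and 253 CPM in the activated libraries, against 4.63, 2.31, 2.31 and 2.30 CPM in the quiescent ones (log2 change 6.47 ± 0.14, adjusted p = 4.44e-13). CHAC1, which degrades glutathione, had 74.0, 72.1, 67.4, 67.8 and 70.8 CPM in the activated libraries, against 0.391, 0.168, 0.716 and 0.192 CPM in the quiescent ones (log2 change 7.60 ± 0.17, adjusted p = 6.53e-13). TRIB3, a pseudokinase that feeds back on ATF4, had 168, 155, 186, 163 and 162 CPM in the activated libraries, against 0.893, 0.840, 1.27 and 1.597 CPM in the quiescent ones (log2 change 7.22 ± 0.12, adjusted p = 5.65e-14). None of these 3 genes exceeded 4.63 CPM in a quiescent library.

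The promoters of these 3 genes are shown because they hold the letters TGATGNAA, part of the composite element that ATF4 binds with a C/EBP partner, in capitals on either strand (GRCm38.p6, RefSeq). ASNS lies at chr6:7693160-7693459 and TRIB3 at chr2:152344011-152344310, both on the minus strand, and CHAC1 lies at chr2:119350992-119351291 on the plus strand.
ASNS: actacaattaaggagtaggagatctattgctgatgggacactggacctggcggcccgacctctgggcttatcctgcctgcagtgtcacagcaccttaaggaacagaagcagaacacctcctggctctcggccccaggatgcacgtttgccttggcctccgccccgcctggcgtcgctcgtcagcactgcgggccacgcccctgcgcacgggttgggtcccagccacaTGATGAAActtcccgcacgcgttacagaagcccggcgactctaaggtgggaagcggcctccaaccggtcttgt
CHAC1: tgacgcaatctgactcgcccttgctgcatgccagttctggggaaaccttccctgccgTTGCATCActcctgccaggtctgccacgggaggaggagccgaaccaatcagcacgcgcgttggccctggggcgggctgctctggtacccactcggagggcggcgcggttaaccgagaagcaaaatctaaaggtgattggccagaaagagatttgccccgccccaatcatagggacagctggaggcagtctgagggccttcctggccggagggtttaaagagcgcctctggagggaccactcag
TRIB3: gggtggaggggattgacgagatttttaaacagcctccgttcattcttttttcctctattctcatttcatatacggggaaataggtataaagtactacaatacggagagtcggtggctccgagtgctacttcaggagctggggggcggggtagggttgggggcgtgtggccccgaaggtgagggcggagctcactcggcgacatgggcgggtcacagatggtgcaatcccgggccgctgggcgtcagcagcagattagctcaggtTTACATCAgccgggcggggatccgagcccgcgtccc
The letters stood in 4 of 18 promoters of the list, PYCR1 being the other one, in 2.09% of all 7364 promoters, in 3.09% of those of genes at least 2-fold higher and in 1.79% of those of genes at least 2-fold lower. This motif was searched after the values had been seen.

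ATF4 itself averaged 741 ± 15.4 CPM in activated and 247 ± 12.1 CPM in quiescent cells (log2 change 1.58 ± 0.04, adjusted p = 2.16e-12). DDIT3 (CHOP), its partner in cell stress, averaged 35.6 ± 1.18 CPM in activated and 17.5 ± 1.37 CPM in quiescent cells (log2 change 1.02 ± 0.07, adjusted p = 2e-08). PSAT1, an enzyme of serine synthesis, averaged 452 ± 13.8 CPM in activated and 24.8 ± 3.27 CPM in quiescent cells (log2 change 4.19 ± 0.08, adjusted p = 1.49e-13). PHGDH, which starts that pathway, averaged 452 ± 13.4 CPM in activated and 96.1 ± 3.68 CPM in quiescent cells (log2 change 2.23 ± 0.04, adjusted p = 1.63e-13). The mitochondrial folate enzymes MTHFD2 and ALDH1L2 had log2 changes of 4.11 ± 0.07 and 5.26 ± 0.17. Amino acid carriers rose with them: 11 of 14 were higher and 1 lower, 7 at least 2-fold higher and 1 at least 2-fold lower. SLC7A5, the catalytic chain of the leucine carrier, had 639, 628, 593, 599 and 592 CPM in the activated libraries, against 28.6, 28.9, 29.7 and 27.0 CPM in the quiescent ones (log2 change 4.42 ± 0.05, adjusted p = 3.45e-15). The cationic amino acid carrier SLC7A3 averaged 87.7 ± 7.29 CPM in activated and 0.604 ± 0.547 CPM in quiescent cells (log2 change of 7.16 ± 0.23, and 7.89 without quiescent library 1). SLC1A4, which carries serine and alanine, and SLC6A9, which carries glycine, had log2 changes of 5.93 ± 0.14 and 5.92 ± 0.17. SLC38A9, a lysosomal arginine sensor, averaged 32.4 ± 4.91 CPM in activated and 71.4 ± 9.22 CPM in quiescent cells (log2 change -1.14 ± 0.11, adjusted p = 4.15e-07).

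Glycolysis genes rose at nearly every step. Of 22 genes, 21 were higher and 1 lower, 18 at least 2-fold higher, with a median of 2.67. HK2, the hexokinase that traps glucose in the cell, had 116, 156, 163, 158 and 149 CPM in the activated libraries, against 8.09, 5.97, 7.55 and 10.5 CPM in the quiescent ones (log2 change 4.23 ± 0.15, adjusted p = 2.44e-11). Activated library 1 was the lowest activated one, yet lay well above every quiescent library. SLC16A3, the lactate exporter MCT4, had 46.8, 90.2, 133, 100.4 and 137 CPM in the activated libraries, against 0.391, 0.504, 0.331 and 0.511 CPM in the quiescent ones (log2 change 7.84 ± 0.44, adjusted p = 2.73e-09). The glucose carrier SLC2A1 averaged 191 ± 36.7 CPM in activated and 73.0 ± 8.68 CPM in quiescent cells (log2 change 1.39 ± 0.13, adjusted p = 5.51e-07). In the middle and lower pathway, ALDOC, TPI1, PGK1, PKM and LDHA had log2 changes of 4.50 ± 0.30, 4.18 ± 0.20, 3.67 ± 0.17, 2.93 ± 0.14 and 3.25 ± 0.14. ENO2 changed by 4.57 ± 0.49, and by 5.17 without quiescent library 2, which at 2.61 CPM was the highest of its group. PFKFB4, a regulator of fructose bisphosphate, was the 1 that fell, at 20.7 ± 1.75 CPM in activated and 31.0 ± 3.44 CPM in quiescent cells (log2 change -0.58 ± 0.09, adjusted p = 4.9e-05).

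Within the activated group the glycolysis list deviated the most of the 30 lists from the group mean. Activated library 1 was the lowest of the 5 for 20 of the 22 genes, and activated library 3 the highest for 17. Over all genes tested, a given activated library was the lowest for 15.4% to 22.7% and the highest for 15% to 22.7%. The median deviation from the activated mean was -0.50 in activated library 1 and 0.29 in activated library 3 on the log2 scale. PGK1, a step that yields ATP, shows the spread, with 1129, 1678, 2221, 1739.7 and 2107 CPM in the activated libraries and 139.9, 147, 139 and 133 CPM in the quiescent ones.

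**Figure D3:**
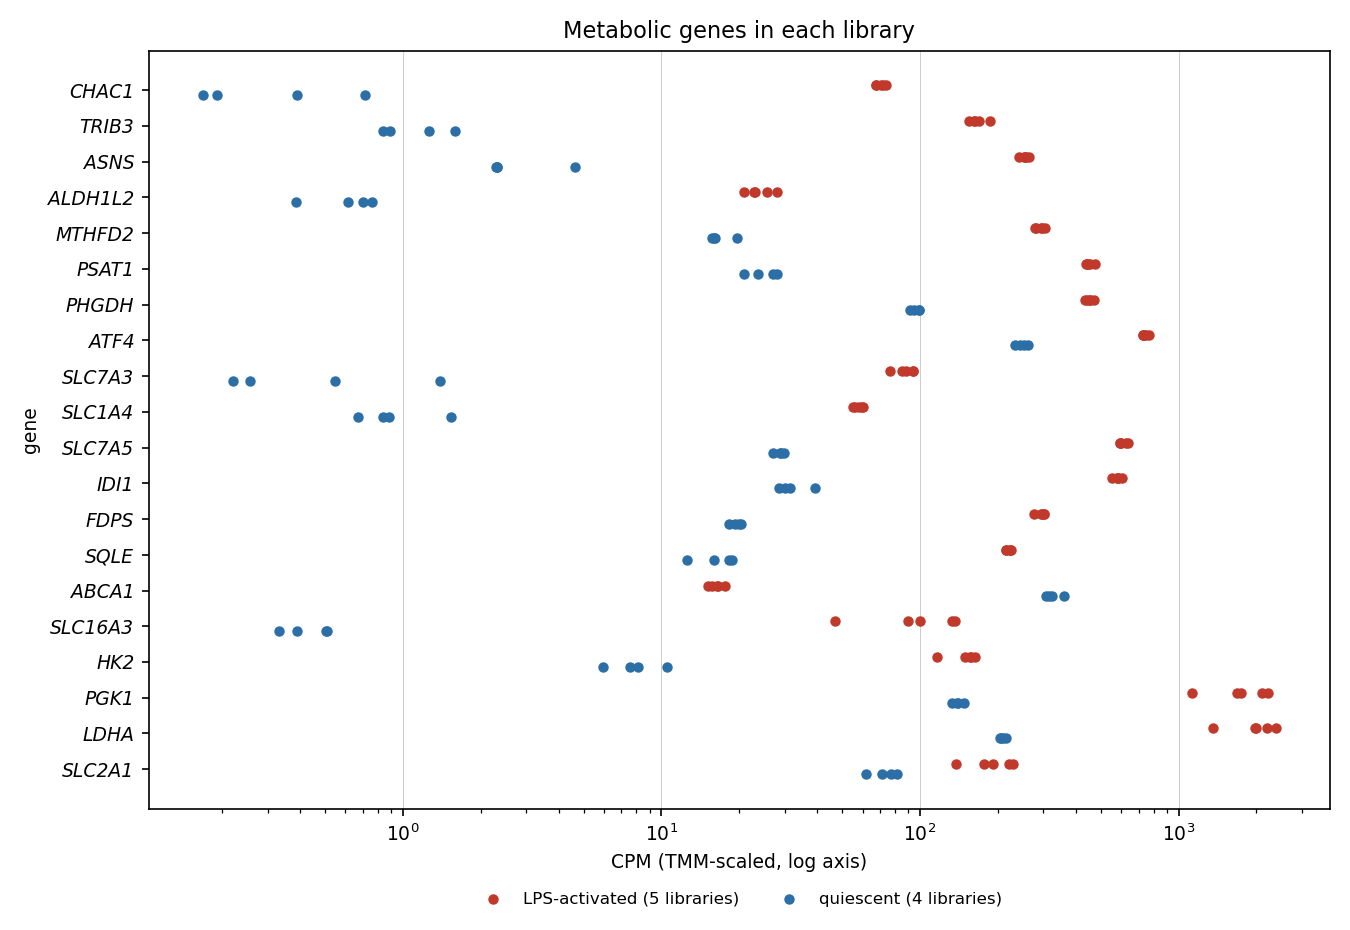
Levels of 20 metabolic genes in each activated library (upper points of each line) and quiescent library (lower points), in CPM on a log axis. The groups are apart for every gene shown, and ABCA1 is the 1 gene that lies lower in activated libraries.

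Most cholesterol and fatty acid genes rose. Of 22 genes, 20 were higher and 2 lower, 17 at least 2-fold higher and 1 at least 2-fold lower, with a median of 2.56. IDI1 and FDPS, enzymes of isoprenoid synthesis, had log2 changes of 4.16 ± 0.08 and 3.91 ± 0.05. SQLE, squalene epoxidase, averaged 220.4 ± 4.42 CPM in activated and 16.4 ± 2.78 CPM in quiescent cells (log2 change 3.74 ± 0.09, adjusted p = 1.15e-12). SCD, a fatty acid desaturase whose human name is carried by 2 mouse profiles, had a log2 change of 3.29 ± 0.09. The genes for cholesterol export fell: ABCA1 had 16.3, 16.5, 15.1, 17.6 and 15.6 CPM in the activated libraries, against 324, 308, 317 and 361 CPM in the quiescent ones (log2 change -4.33 ± 0.06, adjusted p = 1.64e-14). ABCG1 averaged 62.0 ± 9.06 CPM in activated and 91.2 ± 2.17 CPM in quiescent cells (log2 change -0.56 ± 0.09, adjusted p = 6.4e-05).

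Genes for nucleotide synthesis were higher in 24 of 28 cases and lower in 1, with 18 at least 2-fold higher and a median of 1.36. TYMS, thymidylate synthase, averaged 116 ± 16.8 CPM in activated and 4.88 ± 1.06 CPM in quiescent cells (log2 change 4.55 ± 0.15, adjusted p = 1.75e-11). RRM2, the small subunit of ribonucleotide reductase, averaged 179 ± 31.6 CPM in activated and 7.78 ± 1.25 CPM in quiescent cells (log2 change 4.51 ± 0.16, adjusted p = 2.39e-11). CTPS1 and CTPS2, which make CTP, had log2 changes of 2.05 ± 0.09 and -0.71 ± 0.06. Among 19 mitochondrial biogenesis genes 14 were higher and 4 lower, 9 at least 2-fold higher; the mitochondrial chaperone HSPA9 and the import factor TIMM8A had log2 changes of 2.13 ± 0.05 and 2.37 ± 0.09.

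Replication and division genes rose in nearly all cases. Of 33 DNA replication genes, 32 were higher and 1 lower, 25 at least 2-fold higher, with a median of 2.07. MCM10, a factor of origin firing, had 61.6, 64.8, 53.5, 56.0 and 49.6 CPM in the activated libraries, against 2.06, 1.76, 1.21 and 1.66 CPM in the quiescent ones (log2 change 5.08 ± 0.14, adjusted p = 2.63e-12). CDC6, which licenses origins, averaged 57.2 ± 6.95 CPM in activated and 1.76 ± 0.430 CPM in quiescent cells (log2 change 5.01 ± 0.15, adjusted p = 6.96e-12). ORC1, CHAF1A and PCNA had log2 changes of 4.65 ± 0.25, 4.04 ± 0.13 and 2.07 ± 0.07. POLD1, a replicative polymerase, was the 1 that fell, at 152 ± 7.69 CPM in activated and 264 ± 31.3 CPM in quiescent cells (log2 change -0.79 ± 0.07, adjusted p = 2.96e-07).

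Of 28 mitosis genes, 27 were higher, all 27 at least 2-fold, and 1 was lower, with a median of 3.67. MKI67, the proliferation marker Ki-67, had 335, 388, 319.5, 368 and 277 CPM in the activated libraries, against 25.8, 26.1, 23.3 and 26.3 CPM in the quiescent ones (log2 change 3.73 ± 0.10, adjusted p = 2.6e-12). CCNB1, the cyclin of mitotic entry, had 54.8, 55.3, 45.7, 54.2 and 39.7 CPM in the activated libraries, against 2.23, 2.90, 3.03 and 2.94 CPM in the quiescent ones (log2 change 4.17 ± 0.14, adjusted p = 1.77e-11). Neither gene showed any overlap between the groups. BIRC5 (survivin), the kinase gene BUB1, the motor KIF11, CCNA2 and TOP2A had log2 changes of 4.41 ± 0.19, 4.37 ± 0.24, 4.39 ± 0.11, 4.35 ± 0.16 and 4.04 ± 0.14. CENPA, the histone variant of centromeres, averaged 38.1 ± 4.11 CPM in activated and 48.5 ± 2.21 CPM in quiescent cells (log2 change -0.35 ± 0.08, adjusted p = 0.00101). Activated library 2 was the highest of the 5 for 21 of the 28 genes and activated library 5 the lowest for 19.

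The cyclins and inhibitors of the first phase of the cycle changed in both directions, with 17 of 25 genes higher and 7 lower, 12 at least 2-fold higher and 3 at least 2-fold lower. CCND2, the D-type cyclin of B cells, had 589, 645, 524, 563 and 496 CPM in the activated libraries, against 72.7, 64.2, 70.4 and 84.8 CPM in the quiescent ones (log2 change 2.95 ± 0.09, adjusted p = 1.16e-11). CCND3 averaged 156 ± 7.68 CPM in activated and 117 ± 18.3 CPM in quiescent cells (log2 change 0.42 ± 0.09, adjusted p = 0.000622). CCND1 was at the edge of detection, at 0.179 CPM in activated cells and 3.67 CPM in quiescent cells (log2 change of -4.37 ± 0.63, and -5.47 without activated library 5). CCNE1 and CCNE2, which act at the entry into S phase, had log2 changes of 2.54 ± 0.12 and 4.05 ± 0.22. CDK4, the partner of D-type cyclins, changed by 1.597 ± 0.08. The E2F factors E2F1 and E2F8 and their partner TFDP1 changed by 2.43 ± 0.13, 4.17 ± 0.21 and 2.95 ± 0.08. The inhibitor CDKN1B (p27) averaged 144 ± 19.4 CPM in activated and 269 ± 15.4 CPM in quiescent cells (log2 change -0.90 ± 0.09, adjusted p = 4.93e-07). CDKN2D and the RB relative RBL2 had log2 changes of -1.20 ± 0.08 and -1.08 ± 0.06. CDKN1A (p21) rose, at 20.5 ± 0.990 CPM in activated and 2.76 ± 0.879 CPM in quiescent cells (log2 change 2.86 ± 0.16, adjusted p = 2.64e-09).

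Plasma cell genes did not move as 1 group. XBP1, a factor needed for secretion, had 523, 521, 521, 516 and 538 CPM in the activated libraries, against 182, 185, 196 and 174 CPM in the quiescent ones (log2 change 1.51 ± 0.04, adjusted p = 3.34e-12). PRDM1, which encodes Blimp-1, averaged 19.3 ± 1.805 CPM in activated and 9.90 ± 1.63 CPM in quiescent cells (log2 change 0.97 ± 0.12, adjusted p = 6.15e-06). IRF4 averaged 201 ± 15.3 CPM in activated and 249.5 ± 20.1 CPM in quiescent cells (log2 change -0.31 ± 0.07, adjusted p = 0.000668). Some markers of plasma cells were lower and others of the list were higher. Of those that were lower, SDC1 (CD138) had 1.30, 0.678, 0.996, 1.65 and 1.29 CPM in the activated libraries, against 26.0, 22.6, 24.1 and 25.6 CPM in the quiescent ones (log2 change -4.37 ± 0.17, adjusted p = 8.22e-11). JCHAIN, the joining chain of IgM and IgA, had 61.8, 40.5, 64.2, 77.1 and 92.2 CPM in the activated libraries, against 1168, 1424, 1534 and 1303 CPM in the quiescent ones (log2 change -4.34 ± 0.18, adjusted p = 1.67e-10). TNFRSF17, the BCMA gene, averaged 0.0432 CPM in activated cells and 1.89 CPM in quiescent cells (log2 change of -5.25 ± 0.54, and -6.07 without activated library 4). Of the 18 genes, 8 were higher and 9 lower, 2 at least 2-fold higher and 5 at least 2-fold lower. A similar split was seen over all genes tested, with 40.2% higher and 40.6% lower. The shares of all genes at least 2-fold higher and lower were 14.1% and 13.1%. Of the immunoglobulin chains tested, IGHM, IGKC and IGHA1 were lower and IGHE was higher. IGHM averaged 4988 ± 387 CPM in activated and 14311 ± 1224 CPM in quiescent cells (log2 change -1.52 ± 0.06, adjusted p = 1.68e-10; -0.69 with quantile normalization). The light chain gene IGKC averaged 1647 ± 158 CPM in activated and 7192 ± 940 CPM in quiescent cells (log2 change -2.13 ± 0.09, adjusted p = 1.14e-10). IGHA1, which shares its profile with a second human name, averaged 32.8 ± 14.7 CPM in activated and 230.4 ± 127 CPM in quiescent cells (log2 change -2.81 ± 0.42, adjusted p = 4.03e-05). IGHE, the heavy chain of IgE, was low in both groups, at 4.23 ± 0.707 CPM in activated and 1.27 ± 0.555 CPM in quiescent cells (log2 change 1.73 ± 0.28, adjusted p = 7.05e-05). In the list of immunoglobulin and class switching genes 8 of 13 were higher and 5 lower. Of the class switching genes, the repair enzymes UNG and APEX1 rose by log2 changes of 2.75 ± 0.09 and 2.30 ± 0.07. In the list of ER chaperones and the unfolded protein response 19 of 27 genes were higher and 4 lower, with 5 at least 2-fold higher, 1 at least 2-fold lower and a median of 0.45. HSPA5 (BiP) averaged 1298 ± 65.1 CPM in activated and 711 ± 36.9 CPM in quiescent cells (log2 change 0.87 ± 0.05, adjusted p = 2.06e-09). SDF2L1 had a log2 change of 1.39 ± 0.06, and the ER stress sensor EIF2AK3 (PERK) of -1.23 ± 0.05.

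The BCL2 family holds genes that block and genes that promote apoptosis, and members of both kinds rose. Of 13 genes 10 were higher and 2 lower, with 4 at least 2-fold higher and 1 at least 2-fold lower. Of 5 survival members 3 were higher and 1 lower, and of 8 pro-apoptotic members 7 were higher and 1 lower. BCL2L1 (BCL-XL), which blocks apoptosis, had 52.8, 57.4, 55.1, 50.6 and 51.0 CPM in the activated libraries, against 8.20, 8.11, 9.15 and 10.2 CPM in the quiescent ones (log2 change 2.59 ± 0.08, adjusted p = 1.15e-11). BCL2A1, an NF-kB target whose human name is carried by 4 mouse profiles, averaged 278 ± 20.8 CPM in activated and 22.0 ± 3.45 CPM in quiescent cells (log2 change 3.65 ± 0.10, adjusted p = 2.76e-12). The pro-apoptotic BBC3 (PUMA) had 44.4, 43.8, 43.9, 46.4 and 48.7 CPM in the activated libraries, against 3.13, 3.99, 3.53 and 3.07 CPM in the quiescent ones (log2 change 3.71 ± 0.09, adjusted p = 1.47e-12). BCL2L11 (BIM) averaged 140.5 ± 19.1 CPM in activated and 71.8 ± 2.12 CPM in quiescent cells (log2 change 0.97 ± 0.09, adjusted p = 3.04e-07). MCL1 and the pro-apoptotic BMF fell, with log2 changes of -0.78 ± 0.04 and -1.77 ± 0.14. BCL2 averaged 147 ± 9.49 CPM in activated and 159 ± 8.04 CPM in quiescent cells and did not pass the test (log2 change of -0.12, edgeR adjusted p = 0.0624), but was called lower in 4 of the 18 alternative settings. Of the receptors for the survival factor BAFF, TNFRSF13C averaged 363 ± 14.3 CPM in activated and 532 ± 30.6 CPM in quiescent cells (log2 change -0.55 ± 0.05, adjusted p = 1.14e-07).

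Interferon response genes were higher in 18 of 23 cases and lower in 3, with 14 at least 2-fold higher, 2 at least 2-fold lower and a median of 1.61. IFIH1 (MDA5), a sensor of viral RNA, had 79.8, 86.9, 70.5, 92.4 and 58.0 CPM in the activated libraries, against 3.68, 2.31, 2.81 and 4.66 CPM in the quiescent ones (log2 change 4.56 ± 0.19, adjusted p = 1.51e-10). ISG15, a ubiquitin-like modifier, had 67.2, 68.4, 47.9, 63.2 and 50.8 CPM in the activated libraries, against 4.30, 5.59, 5.18 and 4.09 CPM in the quiescent ones (log2 change 3.62 ± 0.14, adjusted p = 8.97e-11). OASL and EIF2AK2 (PKR) had log2 changes of 3.30 ± 0.10 and 2.76 ± 0.12. IRF1 fell, at 76.3 ± 6.69 CPM in activated and 192 ± 6.42 CPM in quiescent cells (log2 change -1.33 ± 0.06, adjusted p = 3.85e-10). IFIT3, whose human name is carried by 2 mouse profiles, was low in both groups, at 2.38 ± 0.561 CPM in activated and 5.37 ± 1.69 CPM in quiescent cells (log2 change -1.17 ± 0.25, adjusted p = 0.000788). Activated library 3 was the lowest of the 5 activated libraries for 19 of the 23 genes, with a median deviation of -0.28 from the activated mean, and activated library 4 the highest for 11.

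**Figure D4:**
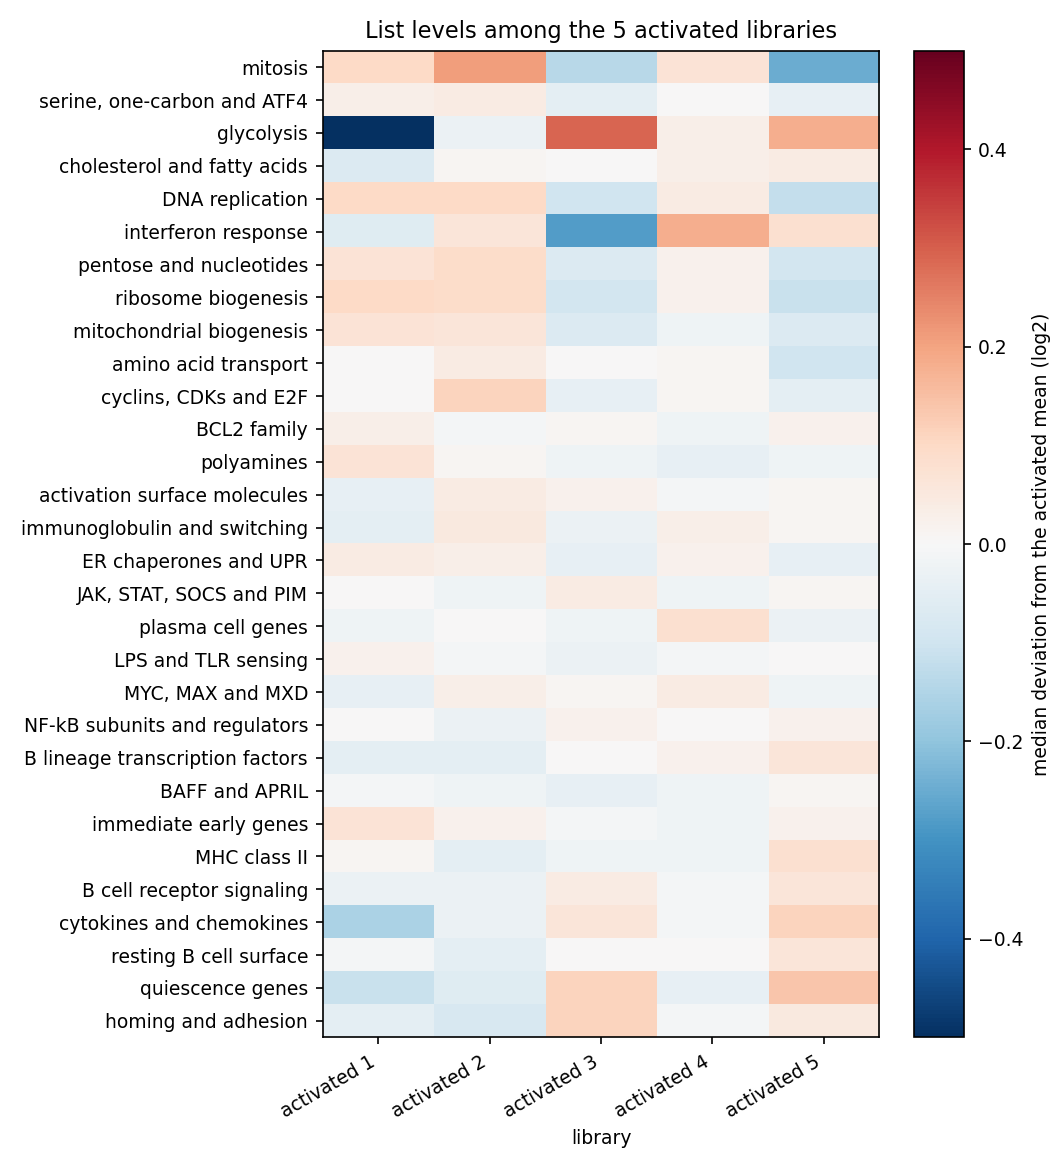
Median deviation of each list's members from their mean over the 5 activated libraries, on the log2 scale (log2 of CPM + 0.5), for 30 lists and 5 libraries. Activated library 1 stands low for glycolysis (-0.50), activated library 3 low for the interferon response (-0.28) and activated library 5 low for mitosis (-0.25).

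The 12 largest rises among genes at 10 CPM or more included IL6, CISH, TNFRSF8, NFIL3, SLC16A3 and CHAC1, described above. SERTAD4 had 30.1, 29.2, 25.7, 26.3 and 28.9 CPM in the activated libraries and was at 0 in the 4 quiescent ones, at least 708-fold higher by a floor of 3 counts over the quiescent group. COX6A2, a subunit of cytochrome c oxidase best known from muscle, had 20.7, 20.1, 16.8, 16.5 and 18.6 CPM in the activated libraries, against 0.0558, 0.0420, 0 and 0.0639 CPM in the quiescent ones, which is 2102 counts against 3, a ratio of 469 with a 95% counting interval of 160 to 2270. AK4, a mitochondrial adenylate kinase, had 30.8, 75.4, 99.0, 55.8 and 73.0 CPM in the activated libraries, against 0.335, 0.168, 0.276 and 0.256 CPM in the quiescent ones (log2 change 8.01 ± 0.48, adjusted p = 4.47e-09). FADS2, a fatty acid desaturase, averaged 33.2 ± 3.58 CPM in activated and 0.170 ± 0.0434 CPM in quiescent cells (log2 change 7.54 ± 0.18, adjusted p = 1.04e-12). LIPG, endothelial lipase, averaged 11.7 ± 1.26 CPM in activated and 0.0661 ± 0.0715 CPM in quiescent cells (log2 change of 7.34 ± 0.32, and 8.17 without quiescent library 1). C3orf80 averaged 33.7 ± 3.72 CPM in activated and 0.106 ± 0.127 CPM in quiescent cells (log2 change of 8.24 ± 0.29, and 8.87 without quiescent library 4).

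Among the 12 largest falls were several markers of macrophages. LYZ, lysozyme, whose human name is carried by 2 mouse profiles, had 0.631, 0.509, 0.149, 1.02 and 0.247 CPM in the activated libraries, against 16.0, 68.7, 45.3 and 148 CPM in the quiescent ones. C1QA, a complement chain made by tissue macrophages, had 0, 0.212, 0.0498, 0.0846 and 0.148 CPM in the activated libraries, against 1.67, 8.32, 10.6 and 22.9 CPM in the quiescent ones. CSF1R, the receptor that macrophages need, had 0.0789, 0.170, 0.199, 0.254 and 0.247 CPM in the activated libraries, against 4.74, 7.94, 16.4 and 31.6 CPM in the quiescent ones. These genes, like VCAM1, SLC40A1, PRG4 and TF below, met the minimum of 1 CPM in 4 libraries only through the quiescent group. The direction of each is therefore partly set by the filter. Quiescent library 4 was the highest quiescent library for LYZ, C1QA and CSF1R, and quiescent library 1 the lowest for all 3. Their log2 changes were -7.02 ± 0.68, -6.71 ± 0.78 and -6.29 ± 0.61, and -6.35, -6.06 and -5.65 without quiescent library 4. VCAM1, an adhesion molecule, and SLC40A1, the iron exporter of red pulp macrophages, changed by -6.30 ± 0.75 and -6.79 ± 0.88, or by -5.43 and -5.54 without that library. PRG4, a lubricating proteoglycan, and TF, transferrin, changed by -7.07 ± 0.89 and -5.58 ± 0.74, or by -6.02 and -4.59 without it. HMOX1, the heme oxygenase of red pulp macrophages, did not follow them, with 23.3, 23.7, 17.1, 20.2 and 16.9 CPM in the activated libraries, against 4.63, 5.76, 7.66 and 25.9 CPM in the quiescent ones (log2 change 0.91 ± 0.40, adjusted p = 0.0497). Its call was lost in 11 of the 18 alternative settings, while without quiescent library 4 its log2 change was 1.75.

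The remaining large falls were of genes with other roles. APOE, a lipid carrier, had 5.52, 4.41, 5.98, 6.90 and 7.81 CPM in the activated libraries, against 212, 213, 211 and 316 CPM in the quiescent ones (log2 change -5.28 ± 0.16, adjusted p = 9.43e-12). RGS2, a brake on G protein signaling, had 1.66, 1.40, 1.40, 2.24 and 1.83 CPM in the activated libraries, against 66.5, 72.9, 79.2 and 92.5 CPM in the quiescent ones (log2 change -5.50 ± 0.14, adjusted p = 1.36e-12). CYP4F3, an enzyme that inactivates leukotrienes, had 2.80, 2.50, 3.04, 2.62 and 3.71 CPM in the activated libraries, against 152, 168, 153 and 108 CPM in the quiescent ones (log2 change -5.64 ± 0.14, adjusted p = 1.88e-12). EXOSC6, a subunit of the RNA exosome, was at 0 in the 5 activated libraries and had 9.32, 12.3, 12.2 and 9.39 CPM in the quiescent ones. That is 0 counts against 828, at least 413-fold lower by a floor of 3 counts over the activated group. The program that estimated the counts is not stated, and the cause of this complete absence was not tested. The last place among the 12 went to a profile shared by several human names of the CEACAM1 family, which cannot be tied to 1 gene. Of 10 natural killer and 16 T cell markers with values, 3 and 6 reached 1 CPM in at least 4 libraries and were tested. All of these were lower as well. A scarce marker can reach that minimum through the group where it is high alone, so these directions are partly set by the filter. Of 9 dendritic cell markers 5 were lower and 3 higher. TBX21, a factor of natural killer and T helper cells, averaged 1.32 ± 0.245 CPM in activated and 9.89 ± 2.78 CPM in quiescent cells (log2 change -2.90 ± 0.23, adjusted p = 6.83e-08). PRF1 (perforin) averaged 1.85 ± 0.576 CPM in activated and 7.68 ± 0.912 CPM in quiescent cells (log2 change -2.05 ± 0.22, adjusted p = 1.38e-06). CD8A averaged 0.230 ± 0.179 CPM in activated and 2.12 ± 0.320 CPM in quiescent cells (log2 change -3.12 ± 0.46, adjusted p = 3.06e-05). CLEC9A, a marker of cross-presenting dendritic cells, was at 0 in the 5 activated libraries and had 1.34, 2.94, 2.31 and 2.24 CPM in the quiescent libraries, at least 85.2-fold lower by the same floor. ITGAX (CD11c), another dendritic cell marker, averaged 0.113 ± 0.0793 CPM in activated and 8.85 ± 4.09 CPM in quiescent cells (log2 change -6.19 ± 0.47, adjusted p = 4.75e-08). The 3 that were higher were BATF3, BST2 and ZBTB46, with log2 changes of 1.96 ± 0.33, 1.15 ± 0.08 and 1.08 ± 0.14. The red cell anion exchanger gene SLC4A1 averaged 0.131 ± 0.0663 CPM in activated and 2.98 ± 1.89 CPM in quiescent cells (log2 change -4.41 ± 0.52, adjusted p = 4.12e-06). SLC4A1, CLEC9A and ITGAX reached 1 CPM in quiescent libraries only, so their directions too are partly set by the filter.

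**Figure D5:**
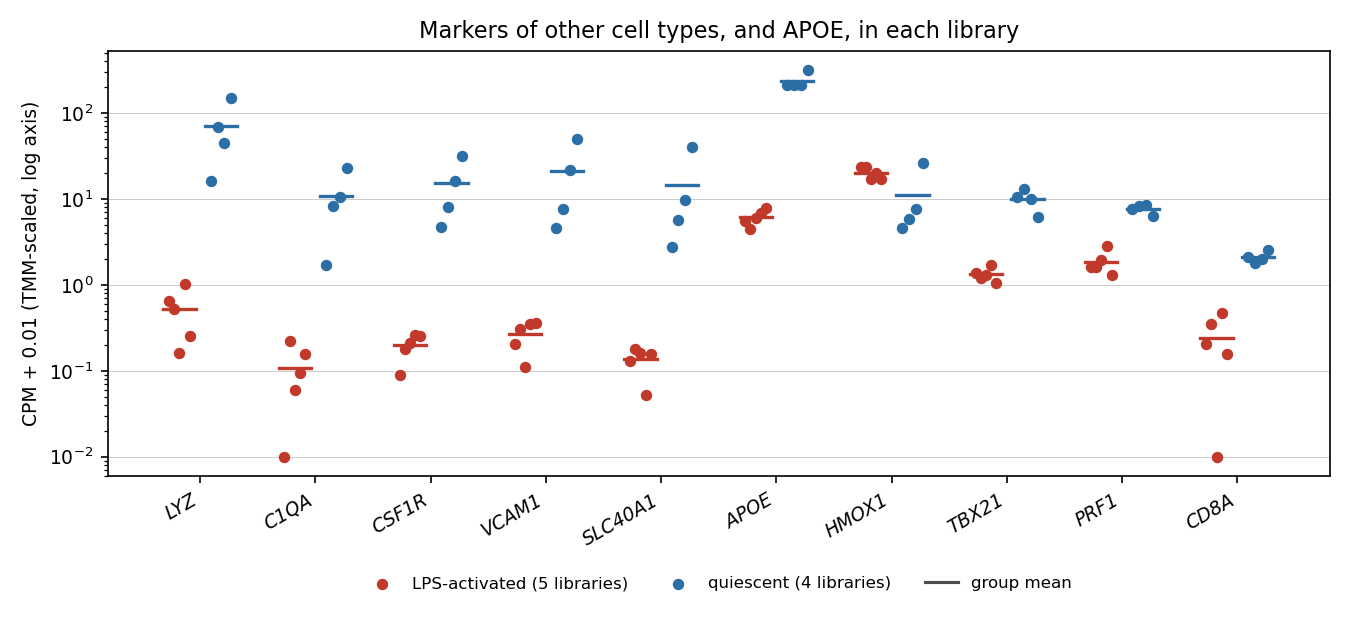
Levels of 9 markers of other cell types and of APOE, as CPM + 0.01 on a log axis, in the 5 activated libraries (left of each pair) and the 4 quiescent libraries (right), with bars at the group means. Quiescent library 4, the rightmost point of each quiescent group, is the highest for LYZ, C1QA, CSF1R, VCAM1, SLC40A1, APOE and HMOX1.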

How the data were processed

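RNA was column-extracted and made into stranded total RNA libraries, per the labels' protocols. The authors deposited 1 table of estimated counts under a file name that says TPM; its values are not whole numbers and their totals differ between libraries, which TPM would not. The submitters' processing notes name Trim Galore 0.4.0, DESeq2 and GRCm39. Neither the program that estimated the counts nor the way human symbols were assigned is stated in those notes or the labels. Identical entries were merged, leaving 15881 profiles, 465 of them with several human names; 530 names had several profiles and are uncertain as to the mouse gene. Columns of the 9 libraries were rounded and fitted with edgeR 4.0.16 in R 4.3.3 by its quasi-likelihood test (2-sided, TMM factors), for 10030 genes with at least 1 CPM in at least 4 libraries, after a trial on simulated data. Adjustment was by Benjamini-Hochberg over those genes. The SE of a log2 change was taken from its F statistic (the size of the change over the root of F). Alternatives used limma 3.58.1, DESeq2 1.42.0, other scalings and filters, and each library left out. Counting intervals and floors cover counting error only. Promoters came from RefSeq (GRCm38.p6) and were matched for 7364 of the 9508 tested genes with 1 name and 1 profile. The members and lists were chosen with earlier results of these data known. Named genes are 5 markers, up to 4 rises and 4 falls per list at 5 CPM or more, the 12 largest rises and falls without overlap at 10 CPM or more, and members whose role a sentence needed. Of the 218 genes named by the numerical part of this rule 164 are described, and a few genes are not reported here; those named for their role were chosen after their values were seen. The main fit did not pair libraries by replicate number.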

Additional observations from a re-analysis of the deposited data

Results flagged for a closer look

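In 26 of 474 groups of libraries of the named genes, 1 library stood apart from the rest of its group by Dixon's criterion, which chance meets in about 1 in 20 groups. Among activated libraries, library 1 was low for HK2 (115.8 CPM), library 2 was low for S1PR1 (33.4 CPM) and high for STAT5A (209 CPM), and library 4 was high for TF (0.508 CPM). Library 3 was low for TLR7 (106 CPM) and BST2 (45.9 CPM) and high for REL (467 CPM) and SLC38A9 (41.0 CPM). Library 5 was low for CD69 (150.1 CPM) and high for HLA-DMA (415 CPM).

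Among quiescent libraries, library 1 was low for TLR6 (55.1 CPM), FOSB (4.86 CPM) and CCNB1 (2.23 CPM) and high for ASNS (4.63 CPM) and MTHFD2 (19.6 CPM). Library 2 was low for EIF2AK3 (127 CPM) and high for HLA-DRA (3154 CPM), ENO2 (2.61 CPM) and CDKN1A (4.08 CPM), and library 3 was low for MKI67 (23.3 CPM). Library 4 was low for TICAM1 (32.3 CPM), KLF3 (206 CPM) and IRF4 (219 CPM) and high for FCMR (1235 CPM), APOE (315.6 CPM) and HMOX1 (25.9 CPM).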

How the results depend on the processing

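Without a filter on low counts 2098 genes were at least 2-fold lower, against 1312 with it. All other counts stayed within 1.5 times of the reported ones: 3688 to 4439 genes were higher, 3702 to 4648 lower and 1168 to 1744 at least 2-fold higher over the alternatives. Leaving out 1 library at a time gave 3922 to 4080 genes higher, 3942 to 4025 lower, 1391 to 1471 at least 2-fold higher and 1292 to 1322 at least 2-fold lower. DESeq2 called 4060 genes higher and 4071 lower. Of 4247 pairs of a named gene and a setting, 4219 kept direction and call, 17 lost the call, 7 gained it and 4 turned direction, all 4 with quantile normalization and limma: CD74 (0.32), PAX5 (-0.13), NFKBIA (0.02) and CD40 (0.006). With genes under 5 CPM left out, the median log2 change of the plasma cell list was 0.195, against -0.10. Leaving out of the marker sums the genes that another list also holds, a setting chosen after seeing the data, gave log2 ratios of 0.555, against -0.544, for dendritic cells (without CCR7) and -3.749, against 1.425, for red cells (without TFRC). The causes were not tested. Equal replicate numbers did not go with equal deviations (correlations of -0.012, 0.0063, -0.02 and 0.02). Whether libraries of equal number share a preparation cannot be told from these 4 values. With the number as a replicate block over 4 pairs, 4025 genes were higher, 3887 lower, 1478 at least 2-fold higher and 1308 at least 2-fold lower. Genes near 0 in a group, such as IL6, IL10 and EXOSC6, are limited by counting, and their fitted changes depend on the prior count.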
